A study of Mus musculus with 6 samples.

Results

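Sinusoidal endothelial cells line the capillaries of the liver, and 41 genes that mark or serve them were read in RNA from sorted Kupffer cells, the resident macrophages of the same capillaries. The genes were picked by symbol from a list of endothelial genes, and 41 of the 41 stood in the deposited table of 15458 gene rows. Livers came from mice of wild type genotype 18 days after a Hepa1-6 tumour, from a mouse hepatoma line, had been implanted. In the KC_Epo group the tumour cells overexpressed erythropoietin, the hormone of red cell formation, and in the KC_EV group they held an empty vector. Both groups therefore bore the tumour, and no tumour-free liver enters the comparison. Each group had 3 libraries of polyA RNA from cells sorted by flow cytometry, while strain, age, sex and sort gate are not stated in the labels. Mice carry numbers in the labels, which give no further origin of a library, so p-values here measure spread between libraries, which may be technical.

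The sinusoidal endothelium differs from other vessel linings in that it is pierced by open pores, lacks a firm basement membrane and clears waste molecules from blood through scavenger receptors such as stabilin 2. It depends on VEGF signals for these features, holds the transcription factor Gata4, and sends Wnt proteins and R-spondin to neighbouring hepatocytes. Kupffer cells lie on or within this lining, share several of its endocytic receptors, and are known in mouse to transcribe Cdh5. Pecam1, Nrp1, Eng and Lyve1 are also known from macrophages.

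Promoter sequences are shown for 5 of these genes, the VEGF receptor Kdr, the angiopoietin receptor Tek, the lectin Clec4g, the scavenger receptor Stab2 and the membrane-trafficking gene Ehd3, because ETS proteins, which bind a GGAA core, drive many endothelial genes and several of them are described further on. Each run is the 250 bases before the gene's start in RefSeq, build GRCm38.p6, 5′ to 3′ on the gene's strand, and capitals mark CAGGAA or CCGGAA on either strand. They lie at chr5:75978456-75978705, minus strand (Kdr), chr4:94739039-94739288, plus strand (Tek), chr8:3720652-3720901, minus strand (Clec4g), chr10:87007943-87008192, minus strand (Stab2) and chr17:73804591-73804840, plus strand (Ehd3).
Kdr: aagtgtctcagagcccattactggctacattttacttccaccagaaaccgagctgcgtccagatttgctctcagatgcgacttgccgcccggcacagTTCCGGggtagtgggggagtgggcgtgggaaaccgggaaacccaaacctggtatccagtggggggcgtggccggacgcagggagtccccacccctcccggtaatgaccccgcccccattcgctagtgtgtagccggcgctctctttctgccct
Tek: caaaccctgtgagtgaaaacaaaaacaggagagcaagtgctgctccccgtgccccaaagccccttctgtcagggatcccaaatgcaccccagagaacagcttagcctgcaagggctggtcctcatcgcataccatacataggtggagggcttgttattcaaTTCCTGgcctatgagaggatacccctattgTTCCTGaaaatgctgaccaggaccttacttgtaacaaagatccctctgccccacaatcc
Clec4g: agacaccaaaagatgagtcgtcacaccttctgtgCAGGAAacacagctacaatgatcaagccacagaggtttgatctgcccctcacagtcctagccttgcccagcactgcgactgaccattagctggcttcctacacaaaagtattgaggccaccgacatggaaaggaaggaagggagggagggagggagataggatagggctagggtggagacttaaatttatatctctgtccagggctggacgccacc
Stab2: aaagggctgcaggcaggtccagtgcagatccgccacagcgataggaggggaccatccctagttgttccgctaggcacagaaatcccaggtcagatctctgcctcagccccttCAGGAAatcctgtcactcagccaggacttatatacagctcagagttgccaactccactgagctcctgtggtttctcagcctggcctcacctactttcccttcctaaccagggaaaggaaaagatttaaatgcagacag
Ehd3: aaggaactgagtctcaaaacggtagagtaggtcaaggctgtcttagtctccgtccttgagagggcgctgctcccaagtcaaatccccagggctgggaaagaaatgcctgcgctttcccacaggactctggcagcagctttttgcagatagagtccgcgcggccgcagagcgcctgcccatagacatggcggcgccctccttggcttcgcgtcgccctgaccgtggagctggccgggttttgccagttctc
RefSeq windows matched 23 of the 41 genes by symbol, with 26 windows in all. CAGGAA or CCGGAA stood in 12 of the 26 windows (46.2%), against 35.1% of all 32851 promoter windows. AGATAA or TGATAA, letters bound by GATA factors, stood in 3 windows (11.5%, against 16.6% of all windows). AACAAT or AACAAA, letters bound by SOX factors, stood in 4 windows (15.4%, against 24.9%), and none held TAAACA, a FOX motif found in 12.0% of all windows. All were searched on both strands, and the SOX and FOX letters can overlap in part. A match describes these letters and is not evidence of binding.

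Endothelial transcripts were lower in KC_Epo libraries. The 41 genes summed to 4639, 3126 and 3723 CPM in KC_Epo 1 to 3, against 7164, 8563 and 8009 CPM in KC_EV 1 to 3, with no overlap between the groups. CPM are read counts scaled to library size with TMM factors (trimmed mean of M values), and the sum averaged 3829 ± 762 CPM in KC_Epo and 7912 ± 705 CPM in KC_EV (SD, n = 3 each), a ratio of 0.484. Without Cdh5, the 1 gene that rose, the ratio was 0.417, and without Cdh5 and Stab2 it was 0.371. In bulk RNA, fewer endothelial cells in a sort and less RNA per cell cannot be told apart.

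By the edgeR quasi-likelihood test, with p-values adjusted over 13120 genes and a threshold of 0.05, 32 of the 41 genes fell, 1 rose and 8 did not pass. Over all genes tested 15.4% were called lower and 16.9% higher. All 41 genes passed the filter on low counts, the lowest count of any of them in any library being 6. Their median log2 fold change was -1.33, against -0.0045 over all genes tested. Of the 32 that fell, 29 fell by more than 2-fold, a change that 6.68% of all genes tested showed, and 3 fell by less. In 36 of the 41 genes every KC_Epo library lay below every KC_EV library, as in 24.2% of all genes tested. The call counts moved with the library left out: 10 genes fell without KC_Epo 3, 13 without KC_EV 2 and 13 without KC_EV 3. There were 25 without KC_EV 1, 32 without KC_Epo 2 and 38 without KC_Epo 1. Over all genes tested, 2015 of 13120 were called lower with all libraries. That number was 1251 of 13435 without KC_Epo 3, 1365 of 13324 without KC_EV 2 and 1393 of 13294 without KC_EV 3. It was 1719 of 13328 without KC_EV 1, 1857 of 13449 without KC_Epo 2 and 2147 of 13383 without KC_Epo 1. Across those 6 settings the median over the 41 genes lay between -1.66 and -1.08 on the log2 scale.

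**Figure D1:**
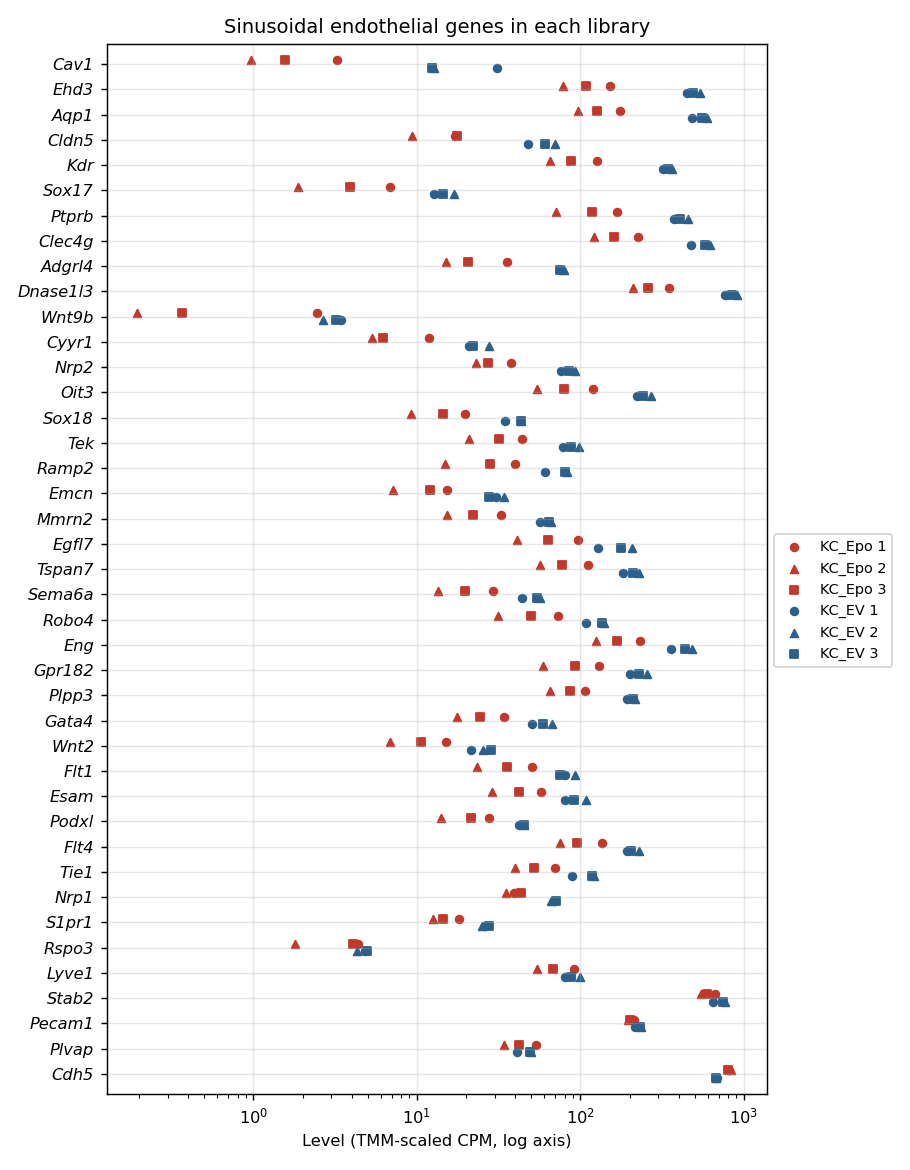
Level of each of the 41 endothelial genes in each library, in TMM-scaled CPM on a log axis, with red marks for KC_Epo and blue marks for KC_EV libraries and genes ordered from the lowest fold change at the top. Red marks lie left of blue marks without overlap in 36 genes, and Cdh5, at the bottom, is the 1 gene with red marks to the right.

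Across the whole table, 4234 of 13120 genes (32.3%) were called, 52.4% of them higher. That share was 40.6% under upper-quartile scaling and 24.8% under library sizes alone, a scaling that moved the median of all genes to -0.16 on the log2 scale. Total counts ran from 23201076 to 33280754 per library. The labelled cell type was checked with 15 Kupffer cell markers, which summed to 47789.8, 52294 and 49091 CPM in KC_Epo 1 to 3, against 32576, 29800.1 and 31595 CPM in KC_EV 1 to 3, and 13 of them rose while 1 fell. Marker sums of other cells moved between groups as well. The 10 hepatocyte markers summed to 19636, 5630.1 and 11657 CPM in KC_Epo 1 to 3, against 2460.0, 3041 and 2775 CPM in KC_EV 1 to 3. The 9 erythroid markers in the table, led by the hemoglobin chains, summed to 1109, 606 and 811 CPM in KC_Epo 1 to 3, against 33.5, 43.1 and 35.3 CPM in KC_EV 1 to 3. The 10 stellate cell and fibroblast markers summed to 98.2, 39.9 and 66.9 CPM in KC_Epo 1 to 3, against 125, 138 and 128 CPM in KC_EV 1 to 3. Dendritic cell markers fell in 5 of 7 cases and summed to 50.9, 42.5 and 45.2 CPM in KC_Epo 1 to 3, against 91.6, 104 and 96.9 CPM in KC_EV 1 to 3, a ratio of 0.473. Of these sums, the gene Zbtb46 supplied 19.5, 7.82 and 12.9 CPM in KC_Epo and 38.0, 43.4 and 38.4 CPM in KC_EV. It was named after its values were seen. Cholangiocyte markers fell in 4 of 7 cases and summed to 17.3, 11.5 and 17.1 CPM in KC_Epo 1 to 3, against 74.2, 35.7 and 34.8 CPM in KC_EV 1 to 3, a ratio of 0.317. The single gene Krt7 supplied 35.7 CPM of the KC_EV 1 sum. Neither list overlapped between groups in its sum. Neutrophil markers summed to 28.1, 29.9 and 27.8 CPM in KC_Epo 1 to 3, against 17.1, 119.9 and 219 CPM in KC_EV 1 to 3, with KC_EV 1 far below the other KC_EV libraries. Of the other lists, T and NK cell markers fell in 1 of 7 cases (14.3%), B cell markers rose in 2 of 6 (33.3%) and platelet markers rose in 3 of 7 (42.9%). The falls given above made up 71.4% of the dendritic and 57.1% of the cholangiocyte markers. Over all genes tested 15.4% were called lower and 16.9% higher, so the T and NK share was no higher than that of all genes. The part of these other cells in the endothelial result was not tested.

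Scavenging and endocytosis genes split into 4 genes that fell by more than 2-fold and a pair, Stab2 and Lyve1, with smaller differences. Ehd3, an ATPase of endocytic recycling that is a marker of sinusoidal endothelium, had 152, 78.4 and 108 CPM in KC_Epo 1 to 3, against 449, 538 and 491 CPM in KC_EV 1 to 3. Every KC_Epo library was under 40% of the KC_EV mean, and the log2 fold change was -2.12 ± 0.27 with its SE (edgeR, adjusted p = 0.00483). Clec4g, the lectin LSECtin, had 225, 121 and 160.1 CPM in KC_Epo 1 to 3, against 473, 619 and 581 CPM in KC_EV 1 to 3, a log2 fold change of -1.72 ± 0.27 with its SE (edgeR, adjusted p = 0.00891). Dnase1l3, a secreted nuclease that digests DNA in circulating particles, had 349, 209 and 259.8 CPM in KC_Epo 1 to 3, against 771, 903 and 842 CPM in KC_EV 1 to 3. KC_Epo 1 was again the highest of its group and still below all KC_EV libraries, and the log2 fold change was -1.62 ± 0.19 with its SE (edgeR, adjusted p = 0.00173). Oit3, a secreted zona pellucida domain protein, fell by 1.53 on the log2 scale with a higher p than the other 3 (edgeR adjusted p = 0.0273), its call being lost without KC_Epo 3, KC_EV 1, KC_EV 2 or KC_EV 3.

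Stab2, the hyaluronan and waste receptor that defines the scavenger function, behaved differently. It had 663, 544 and 592 CPM in KC_Epo 1 to 3, against 648, 768 and 748 CPM in KC_EV 1 to 3. The groups overlapped, since KC_Epo 1 lay above KC_EV 1, and the log2 fold change was -0.27 ± 0.09 with its SE (edgeR, adjusted p = 0.0436). Leaving out KC_Epo 2, KC_Epo 3, KC_EV 2 or KC_EV 3 ended that call, with edgeR adjusted p up to 0.173 over all alternatives. The fit that was not robust and the fit with a replicate block ended it as well. Lyve1, a hyaluronan receptor also found on macrophages and lymphatic vessels, had 90.8, 54.2 and 68.2 CPM in KC_Epo 1 to 3, against 80.96, 98.9 and 88.2 CPM in KC_EV 1 to 3. The groups overlapped and Lyve1 did not pass at -0.33 ± 0.20 with its SE (edgeR, adjusted p = 0.264), while without KC_Epo 1 the gene passed as lower at -0.54 (edgeR adjusted p = 0.00242).

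All 9 receptors of the VEGF, angiopoietin and semaphorin systems, among which the TGF-beta co-receptor Eng is counted, fell. Kdr, the main VEGF receptor of endothelium, had 127, 65.3 and 88.1 CPM in KC_Epo 1 to 3, against 319.6, 365 and 343 CPM in KC_EV 1 to 3. The lowest KC_EV library was more than 2 times the highest KC_Epo library, and the log2 fold change was -1.88 ± 0.27 with its SE (edgeR, adjusted p = 0.00672). Flt1, a VEGF receptor that acts largely as a decoy, averaged 36.5 ± 13.7 CPM in KC_Epo and 82.4 ± 9.25 CPM in KC_EV (SD, n = 3 each). Flt4, the receptor of VEGF-C, averaged 102 ± 31.1 CPM in KC_Epo and 209 ± 17.1 CPM in KC_EV. KC_Epo levels were 27.2% of the KC_EV mean for Kdr, 44.2% for Flt1 and 48.9% for Flt4. Differences between these 3 folds were not tested. Tek, the angiopoietin receptor whose promoter above holds 2 matches, had 43.9, 20.8 and 31.6 CPM in KC_Epo 1 to 3, against 78.7, 98.1 and 87.8 CPM in KC_EV 1 to 3, and its partner Tie1 stood at 70.1, 39.8 and 51.7 CPM in KC_Epo, against 88.9, 121 and 118 CPM in KC_EV.

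The neuropilins, co-receptors for VEGF and semaphorins, gave the steadiest values of this group. Nrp2 had 37.5, 22.97 and 27.3 CPM in KC_Epo 1 to 3, against 76.2, 92.7 and 85.1 CPM in KC_EV 1 to 3, a log2 fold change of -1.53 ± 0.18 with its SE (edgeR, adjusted p = 0.00126). Nrp1 had 39.4, 34.8 and 43.1 CPM in KC_Epo 1 to 3, against 70.1, 66.1 and 71.3 CPM in KC_EV 1 to 3. The KC_Epo libraries were close to one another for Nrp1, and its log2 fold change was -0.82 ± 0.09 with its SE (edgeR, adjusted p = 3.44e-05), smaller in size than that of Nrp2. Eng averaged 175 ± 54.7 CPM in KC_Epo and 425 ± 62.5 CPM in KC_EV, and Sema6a, a membrane semaphorin, averaged 20.7 ± 7.83 CPM in KC_Epo and 51.7 ± 6.62 CPM in KC_EV (SD, n = 3 each), with log2 fold changes of -1.28 ± 0.27 and -1.32 ± 0.31. Calls for Flt1, Flt4, Tek, Tie1, Eng and Sema6a were each lost without KC_Epo 3, KC_EV 2 or KC_EV 3, while those of Kdr, Nrp1 and Nrp2 held in each of the 16 alternatives run.

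Junction, adhesion and surface coat genes held 6 falls, 3 genes that did not pass and the 1 rise. Cldn5, the tight junction claudin of endothelium, had 17.03, 9.33 and 17.7 CPM in KC_Epo 1 to 3, against 47.7, 70.3 and 60.7 CPM in KC_EV 1 to 3. Here KC_Epo 1 and KC_Epo 3 were alike and KC_Epo 2 was lower, and the log2 fold change was -2.03 ± 0.30 with its SE (edgeR, adjusted p = 0.00733). Ptprb, the phosphatase that acts on Tek and Cdh5, had 168, 71.1 and 118 CPM in KC_Epo 1 to 3, against 376, 453 and 406 CPM in KC_EV 1 to 3, a log2 fold change of -1.79 ± 0.35 with its SE (edgeR, adjusted p = 0.0224). Emcn, a sialomucin, and Mmrn2, a matrix protein of vessels, fell by 1.42 and 1.41 on the log2 scale. Esam, an adhesion molecule of endothelium and platelets, and Podxl, an anionic surface protein, fell by 1.13 and 1.08.

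Cdh5, the cadherin of endothelial junctions, had 808, 833 and 796 CPM in KC_Epo 1 to 3, against 689, 678 and 679 CPM in KC_EV 1 to 3. All 3 KC_Epo libraries were above all 3 KC_EV libraries, and the spread within each group was small. The log2 fold change was 0.25 ± 0.07 with its SE (edgeR, adjusted p = 0.0139), and it remained above 0 under each of the 16 alternatives (0.09 to 0.27), but the call was lost under upper-quartile scaling (edgeR adjusted p = 0.0503), under library sizes alone (edgeR adjusted p = 0.251), and without KC_Epo 3, KC_EV 2 or KC_EV 3. Clec4f, a lectin specific to Kupffer cells, moved the same way in these libraries, at 10274, 11970.3 and 10851 CPM in KC_Epo 1 to 3, against 6257, 6332 and 6611 CPM in KC_EV 1 to 3. Of the 15 Kupffer cell markers, 13 rose, Adgre1 fell (-0.72 ± 0.11) and Timd4 did not pass. The source of the Cdh5 difference was not tested. Pecam1, an adhesion molecule of endothelium, platelets and leukocytes, had 212, 197 and 200.3 CPM in KC_Epo 1 to 3, against 217, 236 and 232 CPM in KC_EV 1 to 3. KC_Epo libraries lay just below KC_EV libraries for Pecam1, and its log2 fold change of -0.17 ± 0.07 with its SE (edgeR, adjusted p = 0.082) did not pass, although it did without KC_Epo 1, without KC_EV 1, with upper-quartile factors or with library sizes alone. Egfl7, a secreted vessel protein, and Robo4, a guidance receptor of endothelium, had log2 fold changes of -1.35 ± 0.40 and -1.32 ± 0.35 with no overlap of groups, but neither passed (edgeR adjusted p = 0.0682 for Egfl7 and 0.0516 for Robo4). Both were called lower by DESeq2 (adjusted p = 0.00414 and 0.00139) and by edgeR without KC_Epo 1 (adjusted p = 0.037 and 0.0109).

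**Figure D2:**
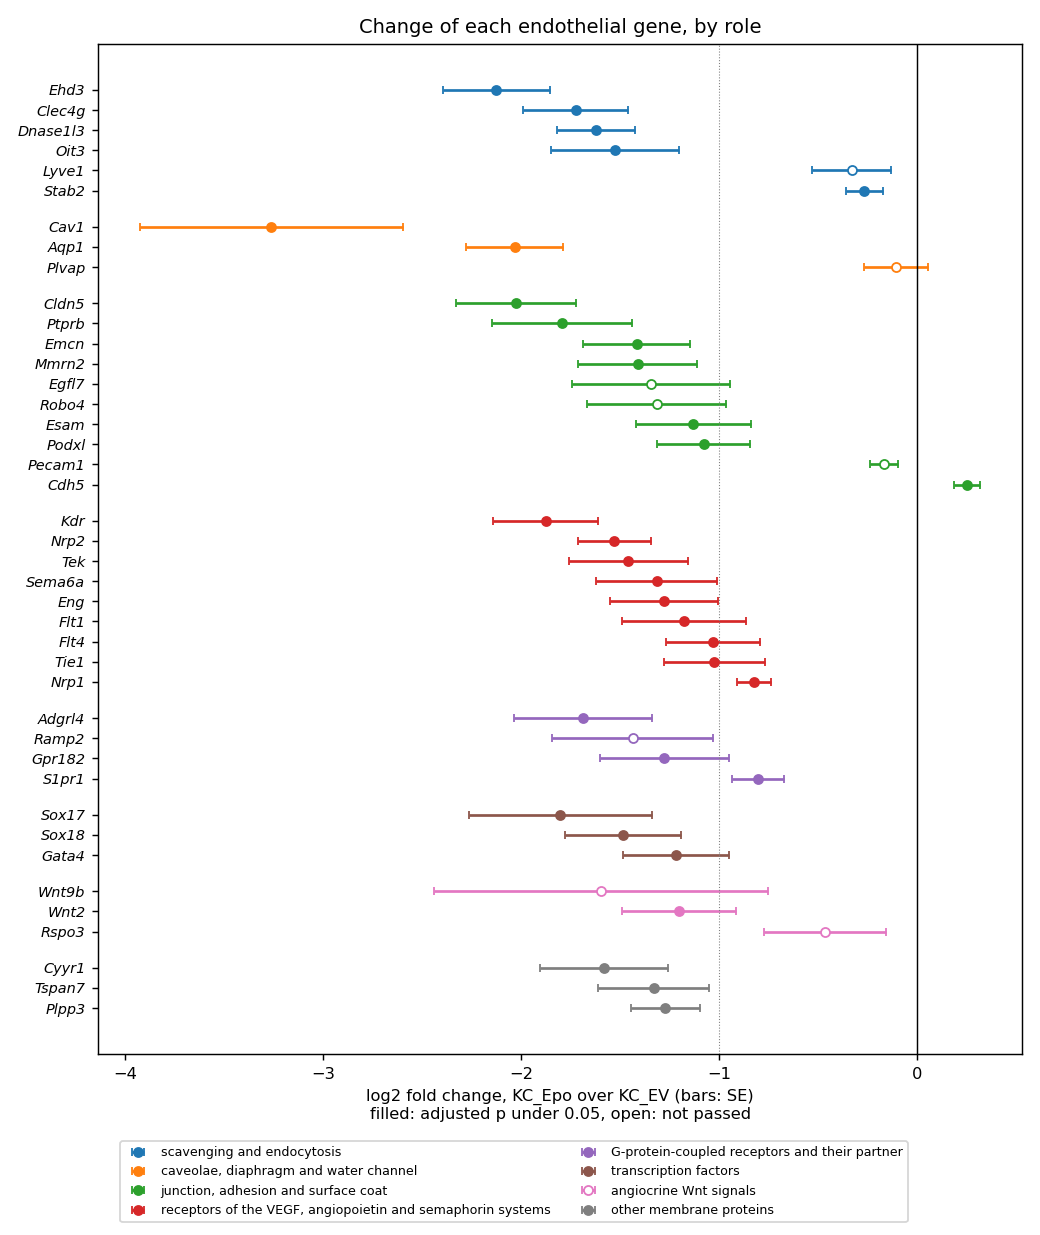
Log2 fold change of each of the 41 endothelial genes, KC_Epo over KC_EV, with bars of 1 SE, grouped by role; filled points passed an adjusted p of 0.05 and open points did not. Most points lie between -1 and -2, and Stab2, Lyve1, Plvap, Pecam1 and Cdh5 lie within 0.35 of 0.

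Among the genes of caveolae, pore diaphragms and water transport, Aqp1 and Cav1 fell and Plvap did not pass. Aqp1, a water channel of sinusoidal endothelium and red cells, had 174, 96.2 and 126 CPM in KC_Epo 1 to 3, against 479, 592 and 551 CPM in KC_EV 1 to 3, a log2 fold change of -2.03 ± 0.25 with its SE (edgeR, adjusted p = 0.00335). It fell in the same libraries in which erythroid markers were higher. Cav1, the coat protein of caveolae, had 3.25, 0.965 and 1.55 CPM in KC_Epo 1 to 3, against 30.8, 12.7 and 12.4 CPM in KC_EV 1 to 3. KC_EV 1 was more than 2 times the other KC_EV libraries, and the log2 fold change was -3.26 ± 0.66 with its SE (edgeR, adjusted p = 0.0226), or -2.69 without KC_EV 1. The call was lost without KC_Epo 2 or KC_Epo 3 and with limma-voom (adjusted p = 0.0753). KC_EV 1 also held 35.7 CPM of the bile duct keratin Krt7, against 3.68 and 4.28 CPM in KC_EV 2 and 3. The other cholangiocyte markers were split among the KC_EV libraries. Epcam, Krt8 and Krt18 were highest in KC_EV 1. Krt19 was lowest there, at 5.58 CPM against 9.40 and 7.43 CPM, as were Sox9 and Cldn7. Krt7 and these markers were named after their values were seen. Cav1 is widely expressed outside sinusoids, and the part of bile duct cells in its value was not tested. Plvap, the protein of pore diaphragms that sinusoids hold little of and other capillaries carry, had 53.3, 34.3 and 42.4 CPM in KC_Epo 1 to 3, against 40.7, 50.2 and 49.1 CPM in KC_EV 1 to 3. The groups overlapped and the log2 fold change was -0.11 ± 0.16 with its SE (edgeR, adjusted p = 0.659).

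G-protein-coupled receptors were lower in KC_Epo, with 3 of 4 genes passing. Gpr182, an endothelial chemokine-scavenging receptor, averaged 94.02 ± 35.6 CPM in KC_Epo and 228 ± 27.3 CPM in KC_EV (SD, n = 3 each). Adgrl4, an adhesion receptor of vessels, had 35.6, 15.03 and 20.6 CPM in KC_Epo 1 to 3, against 75.7, 79.4 and 75.2 CPM in KC_EV 1 to 3, a log2 fold change of -1.69 ± 0.35 with its SE (edgeR, adjusted p = 0.0242). The KC_EV libraries were nearly equal for Adgrl4 while the KC_Epo libraries spread by over 2-fold. S1pr1, the sphingosine phosphate receptor that steadies junctions and is also on lymphocytes, had 17.996, 12.6 and 14.4 CPM in KC_Epo 1 to 3, against 26.1, 25.001 and 27.6 CPM in KC_EV 1 to 3, a smaller log2 fold change of -0.81 ± 0.13 with its SE (edgeR, adjusted p = 0.000721). Ramp2, the partner of the adrenomedullin receptor, had 39.8, 14.9 and 28.2 CPM in KC_Epo 1 to 3, against 61.1, 82.5 and 80.5 CPM in KC_EV 1 to 3. The groups did not overlap for Ramp2, yet it did not pass at a log2 fold change of -1.44 ± 0.41 with its SE (edgeR, adjusted p = 0.0608). It passed with DESeq2 (adjusted p = 0.0019) and limma-voom (adjusted p = 0.0468).

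The 3 transcription factors fell. Gata4, which in mouse maintains the sinusoidal type of endothelium, had 34.1, 17.7 and 24.4 CPM in KC_Epo 1 to 3, against 50.8, 67.4 and 59.5 CPM in KC_EV 1 to 3, a log2 fold change of -1.22 ± 0.27 with its SE (edgeR, adjusted p = 0.024). Sox18 averaged 14.4 ± 5.25 CPM in KC_Epo and 40.4 ± 5.03 CPM in KC_EV and Sox17 averaged 4.21 ± 2.52 CPM in KC_Epo and 14.7 ± 2.06 CPM in KC_EV (SD, n = 3 each), both factors of vessel development. Sox17 was at 6.88, 1.87 and 3.87 CPM in KC_Epo 1 to 3, so KC_Epo 1 was more than 3 times KC_Epo 2, and the log2 fold change was -1.80 ± 0.46 with its SE (edgeR, adjusted p = 0.0342). Calls of all 3 were lost without KC_Epo 3, KC_EV 2 or KC_EV 3.

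Angiocrine signals, by which the sinusoid instructs hepatocytes, were few in counts. Wnt2, a Wnt ligand of sinusoids near the central vein, had 15.1, 6.85 and 10.6 CPM in KC_Epo 1 to 3, against 21.4, 25.2 and 28.5 CPM in KC_EV 1 to 3, a log2 fold change of -1.20 ± 0.29 with its SE (edgeR, adjusted p = 0.0224), a call lost without KC_Epo 3, KC_EV 2 or KC_EV 3. Wnt9b, a second ligand of central vein endothelium, had 76, 6 and 8 counts in KC_Epo 1 to 3, against 109, 83 and 108 counts in KC_EV 1 to 3. KC_Epo 1 was near the KC_EV level and the other two were not, and the gene did not pass at -1.60 ± 0.84 with its SE (edgeR, adjusted p = 0.2). Without KC_Epo 1 it passed at -3.49 (edgeR adjusted p = 7.34e-05), and it also passed with DESeq2 (adjusted p = 0.0443) and limma-voom (adjusted p = 0.0186). Rspo3, which amplifies Wnt signals, had 135, 56 and 89 counts in KC_Epo, against 152, 134 and 168 counts in KC_EV, and at -0.47 ± 0.31 with its SE (edgeR, adjusted p = 0.271) it passed in 0 of the 16 alternatives. The 3 other membrane proteins fell: Plpp3, a phosphatase of lysophospholipids, to 41.4% of the KC_EV mean, Tspan7, a tetraspanin, to 39.7%, and Cyyr1, a small membrane protein, to 33.3%.

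In all, 9 of the 32 falls kept their call in all 16 alternatives run, which changed the scaling, filter, fit, tool, block or libraries. They were Ehd3, Aqp1, Dnase1l3, Kdr, Clec4g, Nrp1, Nrp2, Plpp3 and S1pr1. The other 23 lost it in at least 1.

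The spread within KC_Epo followed 1 order of libraries. KC_Epo 1 was highest, KC_Epo 3 between and KC_Epo 2 lowest in 38 of the 41 genes (92.7%), an order that 26.7% of all genes tested had, and 52.1% of the 877 genes called lower by more than 2-fold. At the median over the 41 genes, KC_Epo 1, 2 and 3 stood at 54.8%, 26.1% and 37.8% of the KC_EV mean. KC_Epo 1 exceeded KC_Epo 2 by more than 1.5 times in 36 of the 41 genes (87.8%), against 13.96% of all genes tested and 55.99% of those 877 genes. This ratio had a median of 1.97, against a median of 1.00 over all genes tested. Among all 877 genes called lower by more than 2-fold the median ratio was 1.65. Cdh5 had a ratio of 0.970, Pecam1 of 1.08, Nrp1 of 1.13 and Stab2 of 1.22, while Ehd3, Kdr, Clec4g and Tek lay between 1.86 and 2.11. The hepatocyte, erythroid, stellate, dendritic and cholangiocyte sums given above had the same order of KC_Epo libraries, as did the platelet sum. The dendritic order came from Zbtb46 and is not seen in that sum without it. For cholangiocyte markers KC_Epo 1 and KC_Epo 3 were nearly equal, at 17.3 and 17.1 CPM. For platelet markers KC_Epo 3 and KC_Epo 2 were nearly equal, at 54.6 and 54.0 CPM. The Kupffer cell sum and the T and NK cell sum had the opposite order, and the B cell and neutrophil sums had neither. In KC_EV, library 1 was the lowest in 32 of the 41 genes, against 41.03% of all genes tested. Without KC_Epo 1 and KC_EV 1 together, 38 genes fell and the median log2 fold change was -1.77. In most of the 41 genes these were the libraries nearest the other group. A wider gap without them therefore follows from the order just given and is no separate result. Over all genes tested, 2386 of 13200 were called lower in that setting, against 2015 of 13120 with all libraries.

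**Figure D3:**
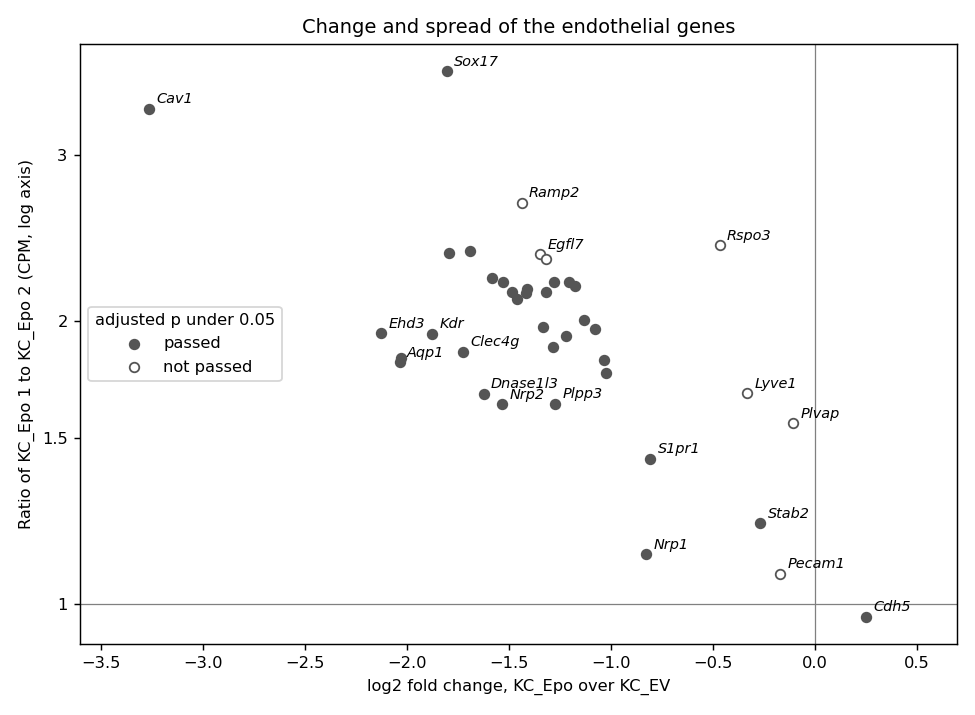
Each point is 1 endothelial gene, with its log2 fold change (KC_Epo over KC_EV) on the x axis and its ratio of KC_Epo 1 to KC_Epo 2 on the y axis, a log axis; Wnt9b, whose ratio rests on 76 against 6 counts, is left out. Cdh5, Pecam1, Stab2 and Nrp1 lie near a ratio of 1 and most genes with larger falls lie between 1.5 and 2.5.

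Because the genes fell unequally, the make-up of the endothelial counts differed between groups. Cdh5 supplied 21.8% ± 4.63 in KC_Epo and 8.67% ± 0.863 in KC_EV of all counts of the 41 genes (SD, n = 3 each). Stab2 supplied 15.9% ± 1.56 in KC_Epo and 9.12% ± 0.200 in KC_EV, and Pecam1 5.41% ± 0.865 in KC_Epo and 2.89% ± 0.136 in KC_EV. Aqp1 supplied 3.40% ± 0.335 in KC_Epo and 6.83% ± 0.128 in KC_EV, and Ehd3 2.90% ± 0.385 in KC_Epo and 6.23% ± 0.0869 in KC_EV. The shares of Flt4 were 2.63% ± 0.276 in KC_Epo and 2.64% ± 0.0693 in KC_EV, so Flt4 kept pace with the sum. Per kilobase of exon (GENCODE M21), the order of levels in KC_Epo was led by Cdh5 at 203 CPM per kb, then Stab2 at 72.9, Clec4g at 69.4 and Dnase1l3 at 57.4. In KC_EV it was led by Clec4g at 229.5 CPM per kb, then Aqp1 at 206, Dnase1l3 at 177 and Cdh5 at 171. Wnt9b was last in both groups, at 0.221 and 0.684 CPM per kb.

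**Figure D4:**
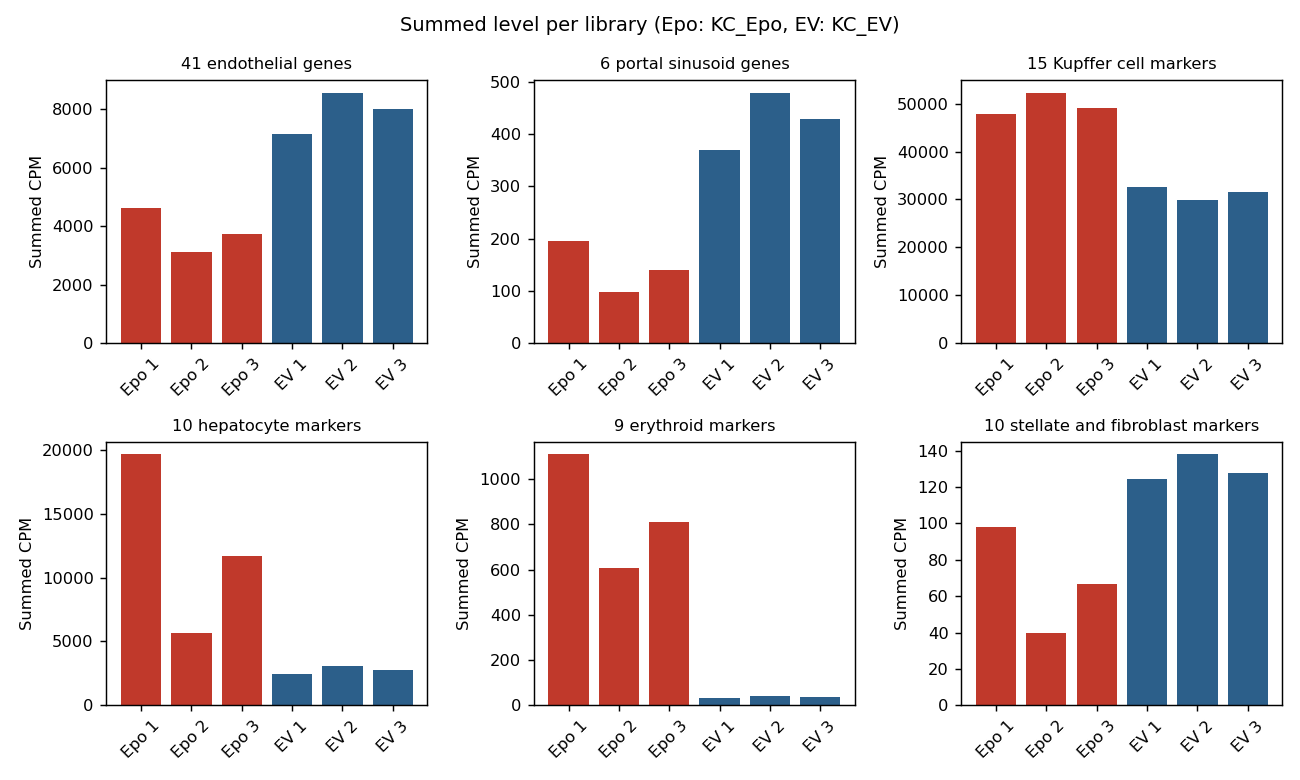
Summed level in TMM-scaled CPM for the 41 endothelial genes and for 5 other gene lists, with red bars for KC_Epo 1 to 3 and blue bars for KC_EV 1 to 3. The endothelial, portal sinusoid and stellate sums are lower in KC_Epo, the Kupffer, hepatocyte and erythroid sums are higher, and KC_Epo 1 is the highest KC_Epo bar in all but the Kupffer panel.

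Other genes of endothelial pathways were read from 8 lists that between them hold 88 tested genes outside the 41: of these 33 fell (37.5%) and 11 rose (12.5%), against 15.4% lower and 16.9% higher over all genes tested. In the BMP list, 3 of 14 genes fell (21.4%) and 2 rose (14.3%), near those shares over all genes tested. The 3 that fell code for ligands or a modulator of ligands. Bmp6, which sinusoidal endothelium secretes and hepatocytes read to make hepcidin, had 3.28, 1.90 and 2.23 CPM in KC_Epo 1 to 3, against 21.8, 26.7 and 24.7 CPM in KC_EV 1 to 3, a log2 fold change of -3.29 ± 0.19 with its SE (edgeR, adjusted p = 5.08e-07). Bmp2, made by the same cells, had 62.8, 31.1 and 42.6 CPM in KC_Epo 1 to 3, against 159.6, 179 and 160.4 CPM in KC_EV 1 to 3, a log2 fold change of -1.87 ± 0.28 with its SE (edgeR, adjusted p = 0.00897). Bmper, which binds BMPs outside the cell, fell as well (-2.77 ± 0.70), but from few counts. It had 3, 1 and 6 counts in KC_Epo 1 to 3, against 26, 28 and 30 counts in KC_EV 1 to 3. Acvrl1, the endothelial BMP receptor also known as ALK1, did not pass at 0.20 ± 0.09 with its SE (edgeR, adjusted p = 0.104). The target genes Id1 and Id2 rose by 0.31 and 0.36. Id3, Smad6 and Smad7 of the same list did not pass, at 0.15 ± 0.09, -0.15 ± 0.10 and -0.12 ± 0.09. Bmp6 and Bmp2 kept their calls in all 16 alternatives, while Id2 lost its call under library sizes alone and Id1 lost it there and without KC_Epo 3 or KC_EV 1.

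In the list of 17 endothelial transcription factors, 10 fell, 1 rose and 6 did not pass, and the list's median was -0.80 on the log2 scale. The ETS factors differed. Ets2 had 114, 108 and 117 CPM in KC_Epo 1 to 3, against 194, 199 and 195 CPM in KC_EV 1 to 3 and Ets1 had 118, 77.1 and 90.1 CPM in KC_Epo 1 to 3, against 150.3, 180.3 and 161 CPM in KC_EV 1 to 3, both of which fell (-0.80 ± 0.07 and -0.78 ± 0.16). Erg, an ETS factor of endothelium, had 55.1, 19.9 and 35.96 CPM in KC_Epo 1 to 3, against 75.1, 104 and 81.2 CPM in KC_EV 1 to 3. The groups did not overlap for Erg, but it did not pass at -1.23 ± 0.43 with its SE (edgeR, adjusted p = 0.098). It passed as lower with DESeq2 (adjusted p = 0.0158), with the fit that was not robust (edgeR adjusted p = 0.0128) and without KC_Epo 1 or KC_Epo 2. Fli1, which blood cells also use, did not pass at 0.04 ± 0.08 with its SE (edgeR, adjusted p = 0.739) and lay below 0 under upper-quartile scaling, under library sizes alone and without KC_EV 3. Tal1, Foxo1, Mef2c, Sox7 and Gata2 fell, with log2 fold changes of -1.52 ± 0.23, -0.66 ± 0.09, -0.86 ± 0.15, -0.97 ± 0.22 and -1.34 ± 0.24.

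Notch genes fell in 5 of 12 tested cases and rose in 1. Dll4, the ligand of arterial and portal endothelium, had 15.3, 5.76 and 10.3 CPM in KC_Epo 1 to 3, against 23.2, 31.8 and 28.7 CPM in KC_EV 1 to 3, a log2 fold change of -1.42 ± 0.38 with its SE (edgeR, adjusted p = 0.0451), a call lost without KC_Epo 3 or any KC_EV library. Notch1, Rbpj and Hes1, which many cell types express, fell by 0.54, 0.38 and 0.50 on the log2 scale. Hey1, a target of Notch, rose by 0.83, the opposite direction to Hes1. Among 12 tested VEGF, angiopoietin and semaphorin ligands, 2 fell (16.7%) and 1 rose (8.3%), near or under the 15.4% lower and 16.9% higher over all genes tested, and 0 fell without KC_Epo 3, KC_EV 2 or KC_EV 3. Vegfa, the ligand of Kdr, had 16.4, 8.62 and 13.1 CPM in KC_Epo 1 to 3, against 18.7, 21.5 and 22.7 CPM in KC_EV 1 to 3, a log2 fold change of -0.72 ± 0.21 with its SE (edgeR, adjusted p = 0.0305), and its call was lost without KC_Epo 3 or any KC_EV library. Sema3f, a ligand of Nrp2, fell (-0.98 ± 0.23) and Sema3a, a ligand of Nrp1 at under 2 CPM, rose (2.45 ± 0.60).

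By position along the sinusoid, genes of the portal end fell in 5 of 6 cases. Ltbp4, a binder of latent TGF-beta, had 63.9, 38.2 and 50.996 CPM in KC_Epo 1 to 3, against 143, 211 and 189.9 CPM in KC_EV 1 to 3, a log2 fold change of -1.83 ± 0.25 with its SE (edgeR, adjusted p = 0.00593). Ntn4, Adam23 and Efnb2 fell by 1.15, 1.59 and 0.91. The portal count was 2 without KC_Epo 3 or without any 1 of the KC_EV libraries. At the central end, where Wnt2, Wnt9b and Rspo3 are counted again, 3 of 7 genes fell: Wnt2, Cdh13 (-1.70 ± 0.39) and the stem cell factor receptor Kit (-1.28 ± 0.32), a count that was 0 without KC_Epo 3 and 0 without KC_EV 3. Whether the portal and central lists differ was not tested.

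Receptors that sinusoidal endothelium and macrophages share split, with 4 of 10 higher and 4 lower. Fcgr2b, the inhibitory IgG receptor that sinusoidal endothelium holds in quantity, had 243, 120.2 and 168 CPM in KC_Epo 1 to 3, against 473, 548 and 496 CPM in KC_EV 1 to 3, a log2 fold change of -1.51 ± 0.28 with its SE (edgeR, adjusted p = 0.0173). Stab1, the relative of Stab2, had 537, 384 and 449 CPM in KC_Epo 1 to 3, against 664, 809 and 819.9 CPM in KC_EV 1 to 3, and F8, clotting factor VIII, which the sinusoid secretes, had 42.03, 22.9 and 32.9 CPM in KC_Epo 1 to 3, against 80.1, 95.6 and 86.4 CPM in KC_EV 1 to 3. Cd55, which shields cells from complement, fell by 1.08 on the log2 scale. Fcgr2b, Stab1, F8 and Mrc1 fall outside the rule for naming and were chosen after their values were seen. Mrc1, the mannose receptor, rose by 0.30, Lrp1 by 0.53, Scarb1 by 0.72 and Colec12 by 1.70 on the log2 scale.

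**Figure D5:**
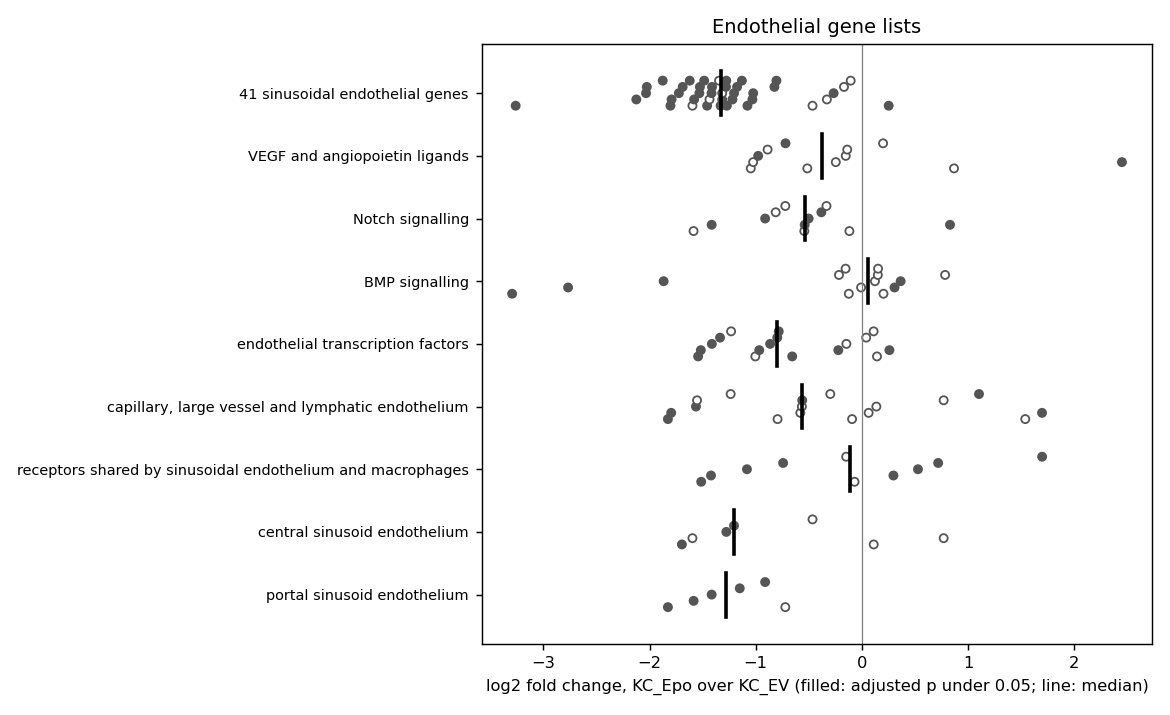
Log2 fold change, KC_Epo over KC_EV, of each tested gene in the 41 endothelial genes and in 8 further endothelial lists; filled points passed an adjusted p of 0.05 and the vertical line is the list's median. The medians are -1.33 for the 41 genes, -1.28 for the portal list, -0.80 for transcription factors and 0.06 for the BMP list, whose 3 lowest points are Bmp6, Bmper and Bmp2.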

How the data were processed

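Counts of reads per gene symbol were deposited by the authors as a table of raw whole numbers with no normalization, for 6 libraries. Per the labels' protocols, libraries were made with a stranded polyA kit, and the submitters' processing notes list GRCm39, HTSeq 0.11.2, STAR 2.7.3a, Bowtie2 2.5.1 and FastQC 0.11.8 without role or order. No source states the counting options. For 12 symbols on 2 rows, none of them among the 41 genes, the symbol went to the row of higher total. Tests used edgeR 4.0.16 under R 4.3.3 (TMM scaling, filterByExpr defaults, robust quasi-likelihood F test, two-sided, Benjamini-Hochberg over 13120 genes, threshold 0.05), tested on simulated data. SEs come from the F statistic. Alternatives used other size factors, filters, DESeq2 1.42.0, limma-voom (limma 3.58.1), a replicate block and left-out libraries. No 2 libraries of a group were copies: each pair gave a chi-square of at least 6.12 per gene. The 41 genes, the lists and the alternatives were chosen with earlier results of these data known. All 41 genes may be named, with up to 4 genes of lowest adjusted p from each other list and any gene of the VEGF, Notch, BMP and transcription factor lists that bears on a member. Exon lengths are from GENCODE M21, and promoters from RefSeq (GRCm38.p6), another build than the authors', so no other coordinates are given.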

Additional observations from a re-analysis of the deposited data

How the results depend on the processing

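Over the 16 alternatives, the 41 genes gave 656 single results, of which 526 kept direction and side of the threshold, 98 lost a call, 31 gained one and 1 changed sign, Plvap at 0.048 without KC_Epo 2 (-0.28 to 0.048 over left-out libraries). Leaving out each library in turn gave 10 to 38 genes lower, 0 to 1 higher (Cdh5), 2728 to 4557 calls over all genes, 24 to 41 genes lower and 9 to 14 higher in the other endothelial lists and a ratio of the 41-gene sum of 0.435 to 0.531. The number higher among the 41 was 0 under upper-quartile scaling and 0 under library sizes alone, where 7 genes of the other lists rose. Fli1 was at -0.022 under upper-quartile scaling, -0.12 under library sizes alone and -0.011 to 0.11 over left-out libraries. With the replicate block 14 of the 41 genes fell, Stab2 not among them. Over all genes tested, 1558 of 13120 were called lower with the block and 2015 of 13120 without it. Same-numbered libraries' deviations from their group means correlated at -0.15 to -0.04. With 3 libraries per group these deviations depend on one another, so they cannot decide whether the numbers pair the libraries. The cause of the lost calls was not tested. The alternatives for the other lists were added after seeing the data. Library sizes that left out hepatocyte, erythroid and endothelial genes were also run, but TMM factors cancel that change, so it tested nothing and is not among the 16.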

Other observations

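Among genes of capillaries, large vessels and lymphatics, 4 of 17 tested fell (23.5%) and 2 rose (11.8%). The shares over all genes tested were 15.4% lower and 16.9% higher. Cd34, a marker of continuous capillaries, had 3.41, 2.16 and 1.91 CPM in KC_Epo 1 to 3, against 8.70, 9.21 and 8.26 CPM in KC_EV 1 to 3, a log2 fold change of -1.80 ± 0.24 with its SE (edgeR, adjusted p = 0.000167). Ackr1, a chemokine receptor of venules, and Icam2, an adhesion molecule of endothelium and leukocytes, fell by 1.83 and 0.56 on the log2 scale, and all 3 kept their calls in the 16 alternatives. Vcam1, an adhesion molecule that Kupffer cells also express, had 1009, 906 and 946 CPM in KC_Epo 1 to 3, against 318, 283 and 281 CPM in KC_EV 1 to 3. The lowest KC_Epo library lay above every KC_EV library for Vcam1, and the log2 fold change was 1.70 ± 0.08 with its SE (edgeR, adjusted p = 8.15e-08).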
